A study of Mus musculus with 30 samples.

Results

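Cytochrome P450 enzymes of families 1, 2 and 3 were measured as messenger RNA in mouse liver, at 3 ages, around the clock and in a liver-specific Egr-1 knockout. Members were the genes whose symbol had the form of Cyp followed by 1, 2 or 3, letters and a number, and whose counts summed to at least 20 over the 18 libraries of the time course. Of 59 such symbols 45 met that minimum, among 54429 gene symbols in the time course table and 55471 Ensembl genes in the genotype table. There were 3 genes of family 1, 36 of family 2 and 6 of family 3, and the same 45 genes were followed in the genotype table by Ensembl identifier. The 14 symbols left out had at most 14 counts each, and Cyp2b13 was among them with 1 count.

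The enzymes of these families sit in the endoplasmic reticulum, take electrons from the reductase Por and from cytochrome b5, and put oxygen into drugs, pollutants, steroids, bile acids and fatty acids. The receptors Ahr, CAR (Nr1i3) and PXR (Nr1i2) are known for switching on members of families 1, 2 and 3 when foreign compounds arrive, and the pulsed growth hormone of males sets several of them apart between the sexes. Many are most abundant in the hepatocytes around the central vein, where Cyp2e1 and Cyp1a2 are known to lie, whereas Cyp2f2 is a known gene of the hepatocytes around the portal vein.

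The time course held 18 libraries from livers of male C57BL/6J mice kept on chow and a cycle of 12 h light and 12 h dark, with 1 library at each of zeitgeber time (ZT) 1, 5, 9, 13, 17 and 21 at 2, 6 and 12 months of age. The genotype cohort held 12 further libraries from male mice, 1 for each genotype at each age and at each of 2 collection times, named H and L for the times when Egr-1 protein was highest and lowest. H was ZT13 and L ZT17 at 2 months, H was ZT9 and L ZT21 at 6 months, and H was ZT5 and L ZT21 at 12 months, as the methods and not the labels give them. The KO came from Alb-Cre, whose albumin promoter is active in hepatocytes, crossed with floxed Egr-1, and its WT were littermates. The lines were of strain 129 origin and backcrossed to C57BL/6J. Figure legends of the study speak of several mice a group, whereas the tables hold 1 library for each age, time and genotype, and whether a library was 1 liver or a pool was not stated. P-values below measure only the spread between these libraries. With no replicates, libraries of other times or pairs stand in for them. This spread therefore mixes differences between mice, technical differences, and effects that vary with time of day or pair.

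Depth was 13375377 to 16557378 counts in the time course and 13747706 to 21748956 in the genotype cohort, and members took 1.32% to 1.99% and 1.39% to 2.14% of it. Markers of hepatocytes were abundant in every library (summed CPM 54622 to 130063 in the time course), and 5 kidney markers summed to at most 0.116 CPM. All 6 libraries of 6 months in the time course stood apart in the acute phase: Saa1, a serum protein of inflammation, was at 5243 to 22651 CPM there and at 79.9 to 328 CPM at 2 months, with 25.3 to 1549 CPM at 12 months, so that the age of 6 months and an acute phase cannot be told apart. The library of 12 months at ZT17 held traces of exocrine pancreas (Cpb1 6.42 CPM). The intestinal gene Alpi was at 3.87 CPM in the library of 2 months at ZT21, and at 3.28 and 3.68 CPM in the libraries labelled KO at 6 months H and 12 months L. In liver tissue as a whole, fewer cells of a type and less RNA per cell cannot be told apart.

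Members lie in gene clusters whose copies are so alike that reads can be shared between them. Over stretches of 50 bases, 72.1% of the Cyp2c40 transcript, 54.8% of Cyp2c69 and 52.8% of Cyp2c67 occurred letter for letter in transcripts of other genes. Of the 45 members, 16 shared more than 20% of their stretches and 10 shared none. Cyp2a5 and Cyp2a4 shared 40.8% and 38% with any other gene, and 31% and 36.1% with each other. The likeness reaches into the sequence before the gene starts, as the 150 bases shown for a pair at the centre of the rhythm results and a pair at the centre of the age results make visible. The stretches are from RefSeq on build GRCm38.p6, where 39 of the 45 members had an entry. They run 5′ to 3′ on the strand of the gene, and capitals mark the bases at which the pair differ, 3 in each pair. All 4 end before the gene starts in RefSeq and in GENCODE. The Cyp2a5 stretch (chr7:26835155-26835304, plus strand) ends 35 bases before the RefSeq start and that of Cyp2a4 (chr7:26307009-26307158, plus strand) 34 bases before it. The Cyp2c40 stretch (chr19:39812815-39812964, minus strand) ends at the last base before the start and that of Cyp2c69 (chr19:39886800-39886949, minus strand) 31 bases before it.
Cyp2a5: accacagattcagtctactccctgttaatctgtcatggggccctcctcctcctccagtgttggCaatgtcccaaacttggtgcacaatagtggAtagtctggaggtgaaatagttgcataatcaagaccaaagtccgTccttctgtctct
Cyp2a4: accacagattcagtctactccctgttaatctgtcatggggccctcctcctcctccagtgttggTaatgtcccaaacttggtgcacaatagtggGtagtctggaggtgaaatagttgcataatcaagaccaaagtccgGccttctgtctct
Cyp2c40: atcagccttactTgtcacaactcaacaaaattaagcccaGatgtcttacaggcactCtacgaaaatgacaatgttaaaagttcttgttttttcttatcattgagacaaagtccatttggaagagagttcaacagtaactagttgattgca
Cyp2c69: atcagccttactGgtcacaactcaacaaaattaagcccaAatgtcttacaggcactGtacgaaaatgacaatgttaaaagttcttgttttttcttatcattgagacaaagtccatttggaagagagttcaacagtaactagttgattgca
Over the whole window before the start, 245 of 249 aligned bases were identical between Cyp2a5 and Cyp2a4, and 217 of 220 between Cyp2c40 and Cyp2c69. A search of windows from 250 bases before to 50 after the start, on both strands, found the D-box letters TTANGTAA (N any base) in 2.32% of 32851 RefSeq promoters and in 1 of the 39 members, Cyp2c38. The E-box CACGTG was in 7.15% of promoters and in 1 member, Cyp2j6, and the letters GCGNGGGCG, known for EGR proteins, in 5.55% of promoters and in 0 of the 39 members. These are matches of letters only.

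Levels between genes were compared per length, as CPM for each kilobase of exon, where CPM are the counts of a gene scaled to a common library size with edgeR's TMM factors. Cyp2e1, the enzyme that oxidises ethanol and paracetamol, was the most abundant member at 1841 ± 408 (SD over the 18 libraries of the time course), which was 26.6% of the summed level of all 45. Next came Cyp2c70, which turns chenodeoxycholic acid into muricholic acid, at 557 ± 191, and Cyp3a11, the main drug-metabolising Cyp3a enzyme of mouse liver, at 473 ± 172. The levels of Cyp2c70 and Cyp3a11 overlapped among the 18 libraries, and neither differed from the other beyond its SD. In CPM, without division by length, Cyp3a11 averaged 2411 and Cyp2c70 1103, so their order depends on the length used.

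The next 7 lay close together, from Cyp2d10 at 357 ± 49 and Cyp2c50 at 354 ± 78.3 through Cyp2d9 at 353 ± 75.1, Cyp2c29 at 340.2 ± 68.3 and Cyp3a25 at 269 ± 50.3 to Cyp2f2 at 263 ± 76.5 and Cyp2j5 at 263 ± 47. Neighbours in this order differed by less than their SD, except Cyp2c29 and Cyp3a25. By subfamily, the 13 Cyp2c genes summed to 31.4% of the members' level per length, Cyp2e1 alone to 26.6%, the 7 Cyp2d genes to 14.7% and the 6 Cyp3a genes to 11.8%. Taking the longest transcript as the length moved Cyp2c50, Cyp2d9 and Cyp3a11 by more than their SD. The lower end held genes known from other tissues or from induced liver. Cyp1a1, which Ahr ligands induce, was at 0.659 ± 0.318 and Cyp1b1, an enzyme mostly outside hepatocytes, at 0.202 ± 0.0907, while Cyp1a2 of the same family reached 243 ± 59.6. Cyp2b10, the usual target of CAR, was at 1.7 ± 1.03.

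**Figure D1:**
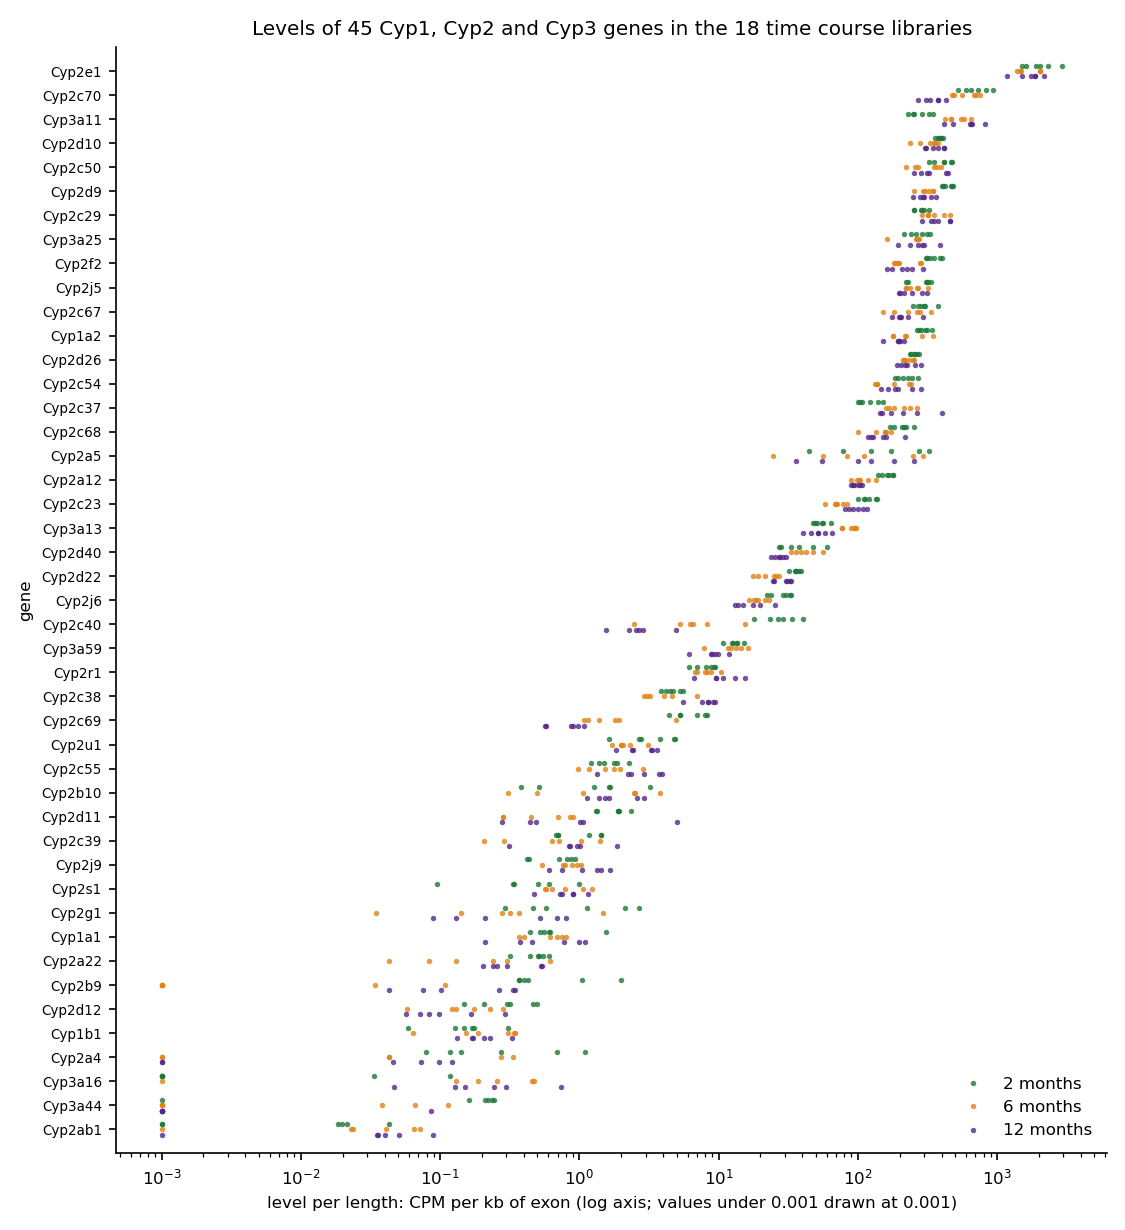
Level per length of the 45 members in the 18 time course libraries, as CPM per kb of exon on a log axis, with 1 point for each library, coloured by age. Members span from 0.0322 (Cyp2ab1) to 1841 (Cyp2e1) on average, and the 12-month points of Cyp2c40 and Cyp2c69 lie apart to the left of their 2-month points.

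The first question was how the levels differed with age. In the time course 41 of the 45 members passed the filter on low counts, and Cyp2a4, Cyp2ab1, Cyp3a16 and Cyp3a44 did not. At 12 against 2 months, 5 members rose and 13 fell, while 6.56% of all 13361 genes tested rose and 5.36% fell. The median log2 fold change was -0.27 over the 41 members, beside -0.002 over all genes tested. Without the library of 12 months at ZT17 the counts were 5 higher and 11 lower, and of the 18 calls 11 were kept under every alternative fit run. The 23 members without a call had log2 fold changes from -1.30 (Cyp2d12, at most 1.93 CPM) to 0.71 (Cyp2c55).

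Calls in opposite directions stood side by side on chromosomes. On chromosome 19, where all 13 Cyp2c genes lie, 3 rose and 5 fell. Of the 7 Cyp2d genes on chromosome 15, 1 fell (Cyp2d9) and the median was -0.48, and of the 4 Cyp3a genes tested on chromosome 5, 1 rose (Cyp3a11) and 1 fell (Cyp3a59). Within 1 stretch of chromosome 7 lie the Cyp2a, Cyp2b, Cyp2f, Cyp2g and Cyp2s genes, of which Cyp2s1 rose and Cyp2a12, Cyp2b9, Cyp2f2 and Cyp2g1 fell.

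The largest fall was that of Cyp2c40 and Cyp2c69, neighbours on chromosome 19 that females are known to express more than males (Cyp2c40: chromosome 19, 39767071 to 39812814, minus strand, ENSMUSG00000025004; Cyp2c69: chromosome 19, 39842814 to 39886799, minus strand, ENSMUSG00000092008; GRCm38). Cyp2c40, an arachidonic acid hydroxylase, was at 36.4 to 81.8 CPM at 2 months (median 56.7), 5.04 to 31.4 CPM at 6 months (median 13.1) and 3.18 to 10.1 CPM at 12 months (median 5.35). Every 2-month library stood above every library of 6 and of 12 months. The difference of 12 against 2 months was a log2 fold change -3.30 ± 0.31 (SE), adjusted p = 4.7e-06. Cyp2c69 was at 7.53 to 14.1 CPM at 2 months (median 10.5), 1.86 to 8.47 CPM at 6 months (median 2.74) and 0.965 to 1.85 CPM at 12 months (median 1.51), without overlap between 12 months and either younger age (log2 fold change -2.94 ± 0.23 (SE), adjusted p = 1e-06). As their letters are largely shared, these are not independent readings. Both genes moved together over the 18 libraries (Pearson r = 0.97 of log2 CPM, a description), both follow age, and they share libraries.

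The other female-biased members were at low levels in these males. Cyp2b9, a female-predominant relative of the CAR target Cyp2b10, was at 0.691 to 3.76 CPM at 2 months (median 0.777), 0 to 0.204 CPM at 6 months (median 0) and 0.0802 to 0.65 CPM at 12 months (median 0.346), which is 10 to 56 reads in a library at 2 months, 0 to 3 at 6 months and 1 to 11 at 12 months. It fell at 12 against 2 months (log2 fold change -1.82, adjusted p = 0.012 by edgeR's quasi-likelihood test), a call that was lost without the ZT17 libraries and without the 12-month ZT17 library alone. Of the 12 female-biased genes listed, 6 of them members, 5 could be tested, of which 3 fell (Cyp2b9, Cyp2c40, Cyp2c69) at 12 against 2 months. Cyp17a1, a steroid hydroxylase of the same list, gave no call there and was at 3.5 to 97.1 CPM over the 18 libraries. Of 8 male-biased genes listed 5 fell as well, among them Cyp7b1, a hydroxylase of oxysterols (log2 fold change -1.15 ± 0.11 (SE), adjusted p = 8e-06), and the member Cyp2d9.

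Cyp2d9, a testosterone hydroxylase that males express more, was at 1065 to 1282 CPM at 2 months (median 1182), 668 to 926 CPM at 6 months (median 838) and 657 to 974 CPM at 12 months (median 789). The 2-month libraries lay above all others (log2 fold change -0.55 ± 0.11 (SE), adjusted p = 0.0053). Cyp2f2, which activates naphthalene, was at 627 to 817 CPM at 2 months (median 692), 366 to 575 CPM at 6 months (median 397) and 326 to 592 CPM at 12 months (median 441) and did not overlap between 2 months and the older ages (log2 fold change -0.70 ± 0.11 (SE), adjusted p = 0.000686). Cyp2a12, a hydroxylase of steroids and bile acids, fell from a median of 569 CPM (481 to 624) to 336 CPM (309 to 369), again without overlap (log2 fold change -0.73 ± 0.09 (SE), adjusted p = 9.7e-05).

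Cyp2c70 was at 1046 to 1854 CPM at 2 months (median 1363), 947 to 1484 CPM at 6 months (median 1229.5) and 539.8 to 846 CPM at 12 months (median 699). Here the 12-month libraries alone stood below the rest, and both comparisons with them passed the threshold (log2 fold change -1.0 ± 0.14 (SE), adjusted p = 0.000201 against 2 months, adjusted p = 0.0012 against 6 months). Cyp1a2, which oxidises caffeine and aromatic amines, was at 532 to 688 CPM at 2 months (median 589.9), 358 to 694 CPM at 6 months (median 446) and 303 to 432 CPM at 12 months (median 398), so that 2 and 12 months were apart and 6 months overlapped both (log2 fold change -0.63 ± 0.13 (SE), adjusted p = 0.0056). Cyp2j6, a fatty acid epoxygenase of the Cyp2j cluster, was at 80 to 120.0 CPM at 2 months (median 108), 59.8 to 82.9 CPM at 6 months (median 68) and 47.5 to 91.5 CPM at 12 months (median 58.9), with overlap between 2 months and both older ages (log2 fold change -0.72 ± 0.13 (SE), adjusted p = 0.0018). Cyp2c67, Cyp2c68, Cyp2g1 and Cyp3a59 also passed at 12 against 2 months and are named here after their values were seen, with log2 fold changes of -0.47, -0.49, -1.60 and -0.52, and each lost its call without at least 2 of the 6 time points.

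Higher levels with age were led by Cyp3a11, at 1177 to 1762 CPM at 2 months (median 1384), 2172 to 3336 CPM at 6 months (median 2609) and 2134 to 4208 CPM at 12 months (median 3273). No 2-month library reached any library of the older ages (log2 fold change 1.10 ± 0.13 (SE), adjusted p = 6.2e-05). Cyp2c38, an epoxygenase of arachidonic acid, was at 11.1 to 15.9 CPM at 2 months (median 13.1), 8.43 to 20.2 CPM at 6 months (median 10.4) and 15.9 to 27 CPM at 12 months (median 24.2) (log2 fold change 0.79 ± 0.15 (SE), adjusted p = 0.0031). Its 12-month library at ZT1 lay level with the highest library of 2 months, and the other 5 lay above. Cyp2c37, a hydroxylase of arachidonic acid, was at 183 to 276 CPM at 2 months (median 209), 291 to 489 CPM at 6 months (median 364) and 265 to 729 CPM at 12 months (median 350.3), with overlap between 2 and 12 months (log2 fold change 0.81 ± 0.18 (SE), adjusted p = 0.0085). Cyp2c29, an epoxygenase known as a CAR and PXR target, and Cyp2s1, an enzyme of epithelia, passed with 0.41 and 0.87, but each lost its call without any of 5 of the 6 time points.

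**Figure D2:**
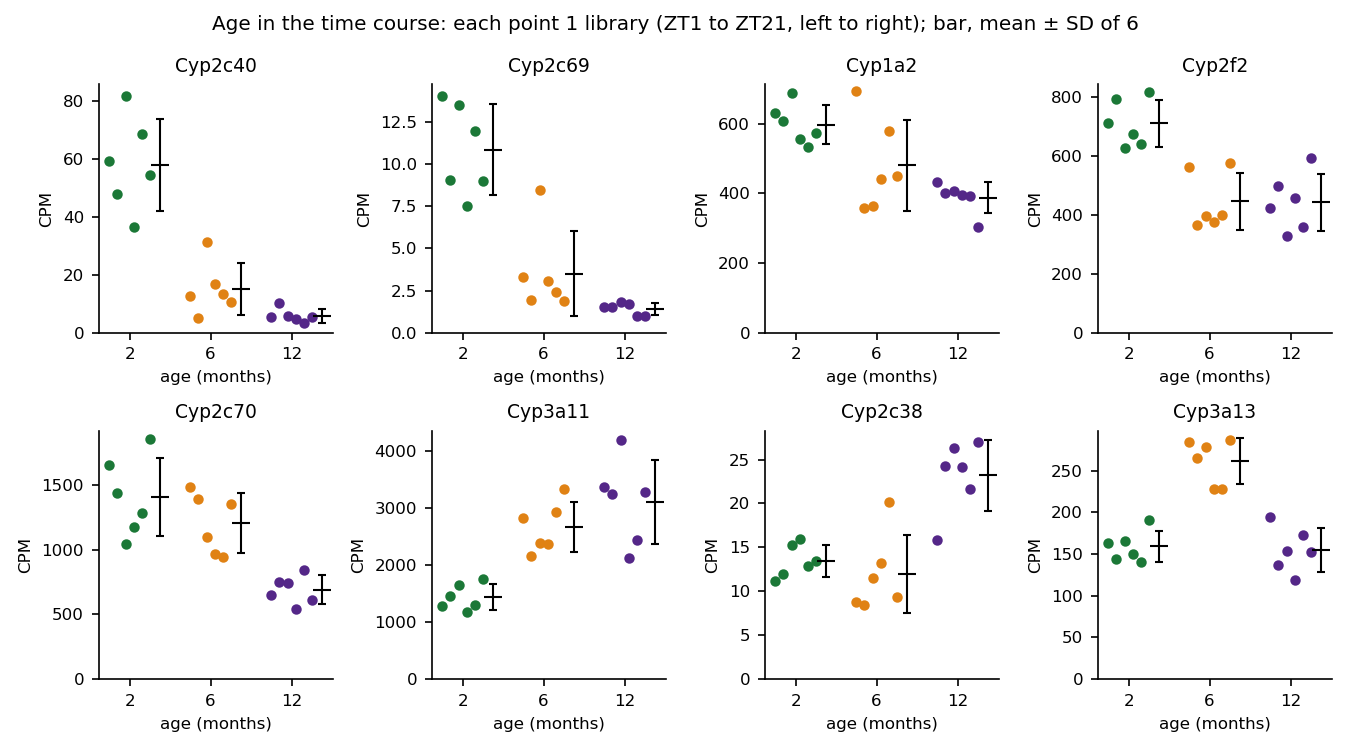
CPM of 8 members in the time course by age, 1 point for each library in order of ZT within an age, with the mean and SD of the 6 libraries as a bar beside them. Cyp2c40 falls from 36.4 to 81.8 CPM at 2 months to 3.18 to 10.1 at 12 months, Cyp3a11 lies higher at both older ages, and Cyp3a13 is high at 6 months alone.

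At 6 against 2 months 4 members rose and 14 fell (7.19% and 6.47% of all genes tested), with a median of -0.33 beside 0.02 over all genes. Beside these stands the acute phase: all 10 acute phase genes listed rose at 6 against 2 months, with a median log2 fold change of 4.56, and their part in the members' levels was not tested. The zone markers moved as well. Of 8 portal markers 4 fell, Cps1 (log2 fold change -0.82), Ass1 (-0.76), Hal (-0.73) and Gls2 (-0.58), and their list summed to 5238 to 7035 CPM at 6 months and 7765 to 9648 at 2 months. Of 9 central markers 3 rose, Glul (0.57), Oat (0.48) and Slc1a2 (0.75), and theirs summed to 1188 to 1682 against 851 to 1145 CPM. At 12 against 2 months in the time course the portal markers Cps1 (-0.43), Pck1 (-0.88) and Hal (-0.37) fell and Hsd17b13 rose (0.49). The central marker Rhbg fell (-1.85). In the genotype cohort the portal Cps1 (-1.04) and Ass1 (-0.66) fell at 12 against 2 months. Of the central markers Glul fell (-0.28) and Lgr5 rose (0.96) there. The part of the zone markers in the fall of the portal gene Cyp2f2 at 6 or 12 months was not tested. Cyp3a13, a Cyp3a enzyme of liver and gut, was at 141 to 190.4 CPM at 2 months (median 157), 228 to 287 CPM at 6 months (median 272) and 119 to 194 CPM at 12 months (median 154) and so was higher at 6 months than at either other age (log2 fold change 0.72 ± 0.10 (SE), adjusted p = 0.000158). Cyp2c23, an epoxygenase of arachidonic acid, was lowest at 6 months (125 to 179.7 CPM against 216 to 297 at 2 months, log2 fold change -0.74 ± 0.11 (SE), adjusted p = 0.000451), and Cyp2d22 fell from a median of 141 to 90.4 CPM (log2 fold change -0.68 ± 0.11 (SE), adjusted p = 0.000872). Of the members described at 12 months, Cyp2a12, Cyp2c40, Cyp2c69, Cyp2d9, Cyp2f2 and Cyp2j6 had fallen by 6 months too, with log2 fold changes of -0.59, -2.00, -1.75, -0.51, -0.68 and -0.53. So had Cyp2c68, whose call was kept in all 14 alternatives, with log2 fold changes from -0.60 to -0.41. Cyp3a11 and Cyp2c37 had risen, with 0.90 and 0.74, the latter losing its call without ZT1. Cyp2b9 fell as well (adjusted p = 0.000128), to 0 reads in 4 of the 6 libraries of 6 months. Cyp2u1, a fatty acid hydroxylase, passed at 6 months (log2 fold change -0.57 ± 0.16 (SE), adjusted p = 0.028) and lost the call without any of ZT1, ZT5 and ZT21 and without the 6-month ZT5 library alone, the one with the most Saa1. Without it 10 members fell and 4 rose. Of the 18 calls at 6 against 2 months 12 were kept under every alternative fit run. Cyp2s1, the other member that rose, lost its call on leaving out any 1 of the 6 time points. The falls of Cyp2a22, Cyp2d11 and Cyp2g1 were kept in 1, 2 and 2 of these 6 fits.

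Between 6 and 12 months 4 members rose (8.13% of all genes) and 6 fell (8.14%). The 4 were Cyp2c38 (log2 fold change 0.99 ± 0.15 (SE), adjusted p = 0.000507), Cyp2c23 (0.44), Cyp2d22 (0.38) and Cyp2b9, whose 6-month libraries were at or near 0. Those that fell were Cyp3a13 (log2 fold change -0.76 ± 0.10 (SE), adjusted p = 8e-05), Cyp2c70, Cyp2c40, Cyp2c69, Cyp2d40 (-0.62) and Cyp3a59 (-0.46). Cyp3a59 kept its call in 5 of 14 alternatives, losing it without any time point but ZT5 and without the 12-month ZT17 library, Cyp2d40 lost it without ZT13 or ZT21, and Cyp2c40 and Cyp2c23 lost it without ZT9. Cyp2d22 lost its call without ZT5, ZT9 or ZT13 and without the 6-month ZT5 library. Several abundant members gave no call in these 3 comparisons. For Cyp2e1 the difference at 12 against 2 months was -0.24 ± 0.12, for Cyp3a25 0.01 ± 0.15 and for Cyp2j5 -0.25 ± 0.11 (log2, SE). Of Cyp1a1 the largest value, 4.34 CPM, was in the 2-month ZT21 library, the one that also held Alpi, and whether intestinal RNA had a part in it was not tested.

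The livers of the genotype cohort give a second look at age, although the times of collection there differed between ages, so that age and time of day cannot be told apart. Dbp, a clock output factor that peaks late in the day, was at 23.2 to 72.9 CPM at 2 months and 2.11 to 6.5 CPM at 12 months in that cohort. There 42 members were tested, and at 12 against 2 months 3 rose and 14 fell, beside 7.16% and 8.36% of 14097 genes. At 6 against 2 months 0 rose and 3 fell, beside 2.92% and 2.57%. Of the 0, edgeR gave 3 members with an unadjusted p under 0.05 and DESeq2 1 past the threshold. The 3 that fell were Cyp1a2, Cyp2c40 and Cyp2c69, of which Cyp1a2 kept its call in 6 of 13 alternatives, with log2 fold changes from -0.58 to -0.23, and held on leaving out the pair of 12 months L but no other. With the 6 WT libraries alone, 1 member (Cyp2d9) was called lower at 12 than 2 months and 0 higher.

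Of the 13 members that fell at 12 months in the time course, 7 also fell in the genotype cohort, which is 53.8% of the first list and 50.0% of the second, and 0 rose. They were Cyp1a2, Cyp2a12, Cyp2c40, Cyp2c69, Cyp2c70, Cyp2d9 and Cyp2f2. The share of all genes called in both cohorts is not given here, so the overlap of falls or rises is not read as particular to the members. In the genotype cohort Cyp2c40 was at 28.3 and 27.2 CPM in WT (H, L) and 52.5 and 58.7 in KO at 2 months, and at 8.6 to 13.5 in the 4 libraries of 12 months (log2 fold change -1.72 ± 0.30 (SE), adjusted p = 0.003). Cyp1a2 was at 658 to 848 CPM at 2 months and 295 to 376 CPM at 12 months there (log2 fold change -1.14 ± 0.13 (SE), adjusted p = 0.000213). For both genes the 4 libraries of 2 months and the 4 of 12 months did not overlap. Leaving out 1 pair at a time gave 6 to 13 members lower, with 6 without the pair of 12 months H and 8 without that of 2 months H.

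Among the members that rose, 1 of 5 in the time course and of 3 in the genotype cohort was shared, Cyp2c38 (log2 fold change 1.33 ± 0.20 (SE), adjusted p = 0.0013 in the genotype cohort). Cyp3a11 was not among them. It was at 1894 to 2280.1 CPM at 2 months and 1917 to 2276 at 12 months in the genotype cohort (log2 fold change 0.02 ± 0.12 (SE), adjusted p = 0.92), and the difference between the cohorts was not tested. Cyp2a5 and Cyp2e1 passed in the genotype cohort, where Dbp was low at 12 months, and not in the time course (-1.68 ± 0.28 and -0.51 ± 0.10 on the log2 scale, SE), and Cyp2e1 lost its call without the pair of 2 months H or 12 months H, as Cyp2c40 and Cyp2c70 did without that of 12 months H. The other 5 that fell in the genotype cohort and not in the time course were Cyp1a1, Cyp2c23, Cyp2d10, Cyp2d11 and Cyp2d22. Of 13 alternatives Cyp2c23 kept its call in 5 (log2 fold changes from -1.04 to -0.25), Cyp1a1 in 6, Cyp2d22 in 7 and Cyp2d10 in 9, and Cyp2d11 in 9 of 12, each losing it without the pair of 12 months H. Those that rose and not in the time course were Cyp2a22 and Cyp2c39, which kept the call in 9 and 10 of 13 and lost it without 2 months H or 12 months H. Cyp2b9 scattered from 0.277 to 62.3 CPM there, with its highest value at 2 months L with the label KO.

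**Figure D3:**
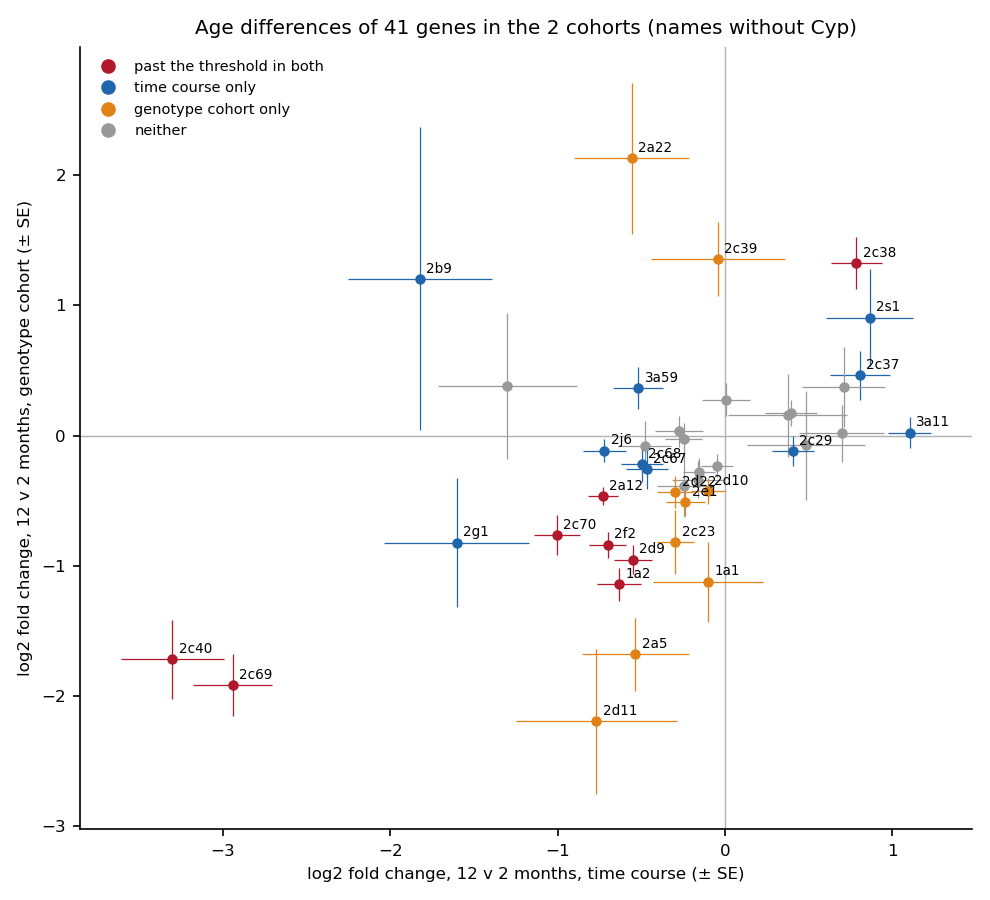
Log2 fold change of 12 over 2 months with its SE for the 41 members tested in both cohorts, the time course on the horizontal axis and the genotype cohort on the vertical one, coloured by which comparison passed an adjusted p of 0.05. Cyp2c40 and Cyp2c69 lie far to the lower left, Cyp2c38 to the upper right, and Cyp3a11 at 1.10 and 0.02.

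The time course also asked which members follow the clock. A cosine of 24 h was fitted within each age, to 6 libraries. At 2 months 3 members were rhythmic, Cyp2a5, Cyp2d40 and Cyp2g1 (5.13% of all genes were), at 6 months 2, Cyp2a5 and Cyp2b10 (4.85%), and at 12 months 2, Cyp2a5 and Cyp2d11 (3.63%). With 1 rhythm common to the 3 ages 4 were called, Cyp2a5, Cyp2g1, Cyp2b10 and Cyp2e1, beside 16.2% of all genes.

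Cyp2a5, the coumarin hydroxylase of mouse liver, had the clearest rhythm. Its levels at ZT1, 5, 9, 13, 17 and 21 were 93.1, 259, 668, 573, 356 and 162 CPM at 2 months. At 6 months they were 117, 51.3, 172, 520.3, 613 and 231 CPM, and at 12 months 75.2, 115, 260.0, 377, 523 and 206 CPM. The highest library was at ZT9 at 2 months and at ZT17 at both older ages, and the lowest at ZT1 or ZT5. The fitted peak lay at ZT 11.7, 15.9 and 14.6, with a peak 6.63, 10.1 and 6.18 times the trough (edgeR adjusted p = 0.000538, 8.3e-05 and 0.0011). The call held at every age under all 11 alternative fits. The one-sided exact permutation test on ranks, described below, gave Cyp2a5 p = 0.133 at 2 months and at 12 months. Cyp2a5 reached the smallest p of that permutation test at 6 months alone.

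The test of the difference between ages itself called 1 member between 2 and 6 months, Cyp2a5 (adjusted p = 0.023, 0.112% of all genes), with a fitted peak 4.18 h later. This call was lost in fits without ZT5, ZT9, ZT17 or ZT21. Between 2 and 12 months 0 members and 0% of all genes were called by edgeR, with 5 members at an unadjusted p under 0.05 and 1 called by DESeq2. Of 6 clock output factors listed, 6 were called for the rhythm common to the ages: Dbp, Tef, Hlf and the repressor Nfil3, which are known to bind D-boxes, and Bhlhe40 and Bhlhe41, which bind E-boxes. None of the 6 passed the edgeR test of a rhythm that differs between 2 and 6 months. In the order named, the adjusted p was 0.063, 0.27, 0.66, 0.063, 0.565 and 0.075. Their fitted peaks lay 2.73, 2.47, 2.00, 4.78, 4.92 and 3.79 h later at 6 than at 2 months. The fitted peak of the member Cyp2g1 lay 4.29 h later, also without passing (edgeR adjusted p = 0.345). The fitted peak of Tef lay at ZT 11.2 at 2 months and ZT 13.7 at 6 months. Cyp2a5 followed Hlf and Tef over the 18 libraries with Pearson r = 0.90 and 0.87, beside 0.60 for Dbp and -0.65 for Nfil3 (a description of log2 CPM, across libraries that share their time of day). Of all genes the most like it were Gys2 (r = 0.93), glycogen synthase of liver, and Nmrk1 (r = 0.91). Cyp2a4, whose promoter stretch differs from that of Cyp2a5 at 3 bases, reached at most 1.91 CPM and did not pass the filter, so its rhythm was not tested.

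Cyp2e1 had a shallower rhythm, with 3478, 4389, 6315, 4978, 4087 and 3278 CPM from ZT1 to ZT21 at 2 months. For the 3 ages together its fitted peak lay at ZT 11.7 and was 1.53 times the trough (adjusted p = 0.018), and the call was lost without ZT9, ZT13 or ZT21. Cyp2g1, a gene known from olfactory mucosa, peaked at ZT 9.67 with 7.62 times its trough, but at no more than 5.79 CPM (85 reads). Cyp2b10 was highest at night, at 6.84 CPM at ZT17 at 2 months and 8.04 and 6.18 CPM at ZT21 at 6 and 12 months, with a common peak at ZT 20.7 and 3.95 times the trough (adjusted p = 0.0088). Cyp2j5 and Cyp2u1 came next by p and did not pass (adjusted p = 0.051 and 0.056). The Cyp2d11 call at 12 months rested on the ZT9 library, at 7.94 CPM beside 0.446 to 1.7 CPM in the other 5, and was lost without it. A one-sided permutation test on ranks in the manner of JTK, exact over all orders of the 6 time points, cannot go below p = 0.0333, and it put 3 members at that p at 2 months (Cyp2c55, Cyp2e1 and Cyp2g1), 2 at 6 months (Cyp2a5 and Cyp2b10) and 1 at 12 months (Cyp2c55). Of all genes tested 8.4%, 7.94% and 6.32% were at that unadjusted p at 2, 6 and 12 months.

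**Figure D4:**
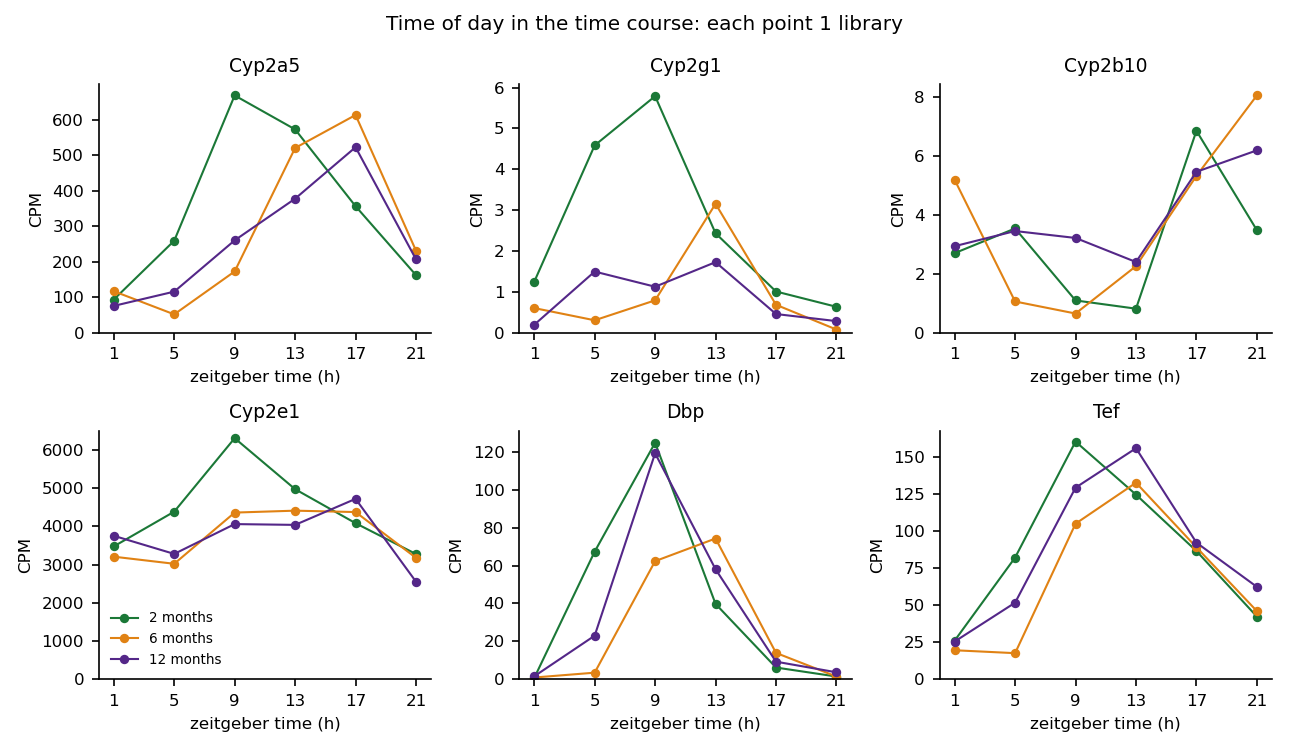
CPM against zeitgeber time (h) for Cyp2a5, Cyp2g1, Cyp2b10, Cyp2e1 and the clock output factors Dbp and Tef, 1 line for each age and 1 point for each library. The Cyp2a5 maximum lies at ZT9 at 2 months and ZT17 at 6 and 12 months. The 6-month curves of Dbp and Tef also lie later than those of 2 months, but neither passed the test of a difference in rhythm.

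The machinery around the enzymes was followed in the same fits, in the time course unless stated. Of 6 electron donors and partners 2 rose at 12 against 2 months, Cyb5b, a cytochrome b5 of the outer mitochondrial membrane (log2 fold change 0.51 ± 0.14 (SE), adjusted p = 0.029), and Cyb5r1. Por, the reductase that serves all members, was at 56.4 to 428 CPM at 2 months, lowest at ZT1 and highest at ZT13. It gave no call at 12 against 2 months in the time course (0.04 ± 0.17, edgeR adjusted p = 0.92). In the genotype cohort, whose collection times differed between ages, Por was lower at 12 months (-1.83 ± 0.18, edgeR adjusted p = 0.000136). Of 13 receptors and partners 12 were tested, and 0 passed at 12 against 2 months in the time course by edgeR or DESeq2. Of these 12, 3 had an unadjusted p under 0.05, and the median was -0.08. The other age comparisons of the time course did give calls by edgeR. Rxrg (-0.59) and Ppara (-0.46) were lower at 6 than 2 months. At 12 against 6 months Ahr (-0.59) and Rxra (-0.34) were lower and Rxrg (0.64) higher. PXR had a log2 fold change -0.06 ± 0.08 (SE), adjusted p = 0.67, and CAR a log2 fold change 0.00 ± 0.16 (SE), adjusted p = 0.99. In the genotype cohort CAR was lower at 12 than 2 months (-0.45 ± 0.09, edgeR adjusted p = 0.0071). Rxrg was higher there (0.72 ± 0.16, edgeR adjusted p = 0.0084), and PXR gave no call (edgeR adjusted p = 0.10). Of 10 genes of haem synthesis and breakdown 1 rose, Blvrb, a biliverdin reductase (log2 fold change 0.99 ± 0.09 (SE), adjusted p = 4.9e-06), and 2 fell, Cpox and Uros. Of 9 growth hormone and sex-bias factors 8 were tested, and 2 fell, Igf1 (log2 fold change -0.34 ± 0.09 (SE), adjusted p = 0.026) and Stat5b, the factor that carries the growth hormone signal (log2 fold change -0.26 ± 0.08 (SE), adjusted p = 0.0497). The genotype cohort gave the opposite direction for Stat5b, higher at 12 than 2 months (0.58 ± 0.12, edgeR adjusted p = 0.0074). Igf1 fell there as well (-0.30 ± 0.09, edgeR adjusted p = 0.042). Markers of lymphocytes were higher at 12 months (summed 37.2 to 285 CPM, against 10.2 to 18 at 2 months, with 1 of 4 tested past the threshold), and their part in the age differences was not tested.

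The last comparison asked which members differ when hepatocytes lack Egr-1. Egr1 itself, in CPM for the pairs 2 months H and L, 6 months H and L, and 12 months H and L, was 2.55, 1.45, 72.1, 25, 5.86 and 55.3 in the libraries labelled WT. In those labelled KO it was 1.97, 7.37, 5.49, 4.96, 6.13 and 1.54. In the pairs of 2 months L and 12 months H the library labelled KO was not the lower one, which goes against the labels. Directions below are therefore those of the labels, and the deleted exons were not read apart from the rest of the gene.

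Of 41 members tested over the 6 pairs, 1 was higher (0.785% of 13639 genes were) and 1 lower (0.792%) in the libraries labelled KO. The median log2 fold change was -0.03 beside -0.01 over all genes. Cyp2f2 was lower. Its levels, in the same order of pairs, were 978, 907, 717, 888, 525 and 584 CPM in WT and 775, 612, 568, 607, 381 and 358 CPM in the libraries labelled KO, lower in 6 of 6 pairs (log2 fold change -0.49 ± 0.07 (SE), adjusted p = 0.014). Leaving out the pair of 12 months H or that of 12 months L gave an adjusted p of 0.0507 or 0.0515. Without the 2 pairs in which Egr1 went against the labels, the fold was -0.48 (adjusted p = 0.14), and with no replicate block for the pairs the adjusted p was 0.45.

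Cyp2c38 was higher. It was at 20.3, 13.6, 23.2, 26.3, 57.5 and 43 CPM in WT and 27.3, 34.9, 34.4, 59.7, 72.3 and 59.3 CPM in the libraries labelled KO, higher in 6 of 6 pairs (log2 fold change 0.71 ± 0.14 (SE), adjusted p = 0.038). The call was lost on leaving out any pair but that of 2 months H. Without the 2 pairs that went against the labels it was 0.66 (adjusted p = 0.13), and with no replicate block the adjusted p was 0.55. Cyp2c39 and Cyp3a59 were also higher in 6 of 6 pairs without passing (adjusted p = 0.19 and 0.08). Cyp2c69 was higher in 5 of 6 without passing (0.89 ± 0.21, adjusted p = 0.071). Cyp2u1 was at 19.7, 17.2, 15.6, 13.3, 10.6 and 16.7 CPM in WT and 12.2, 6.41, 11.4, 14.5, 6.42 and 8.71 CPM in the libraries labelled KO, lower in 5 of 6 pairs without passing (log2 fold change -0.67 ± 0.16 (SE), adjusted p = 0.077). The 39 members without a call ranged from -0.67 (Cyp2u1) to 1.00 (Cyp2d12).

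Markers of other kinds moved beside Cyp2f2. Of 7 general hepatocyte markers 3 were lower in the libraries labelled KO. They were Alb, the gene of serum albumin (log2 fold change -0.88 ± 0.11 (SE), adjusted p = 0.01), Apoa1 (log2 fold change -0.76 ± 0.10 (SE), adjusted p = 0.0095) and Apob (log2 fold change -0.39 ± 0.08 (SE), adjusted p = 0.038). Ttr, Serpina1c, Tat and Hnf4a gave no call (log2 fold changes -0.18, -0.28, 0.09 and -0.004). The summed level of the list was 71118 to 91471 CPM in WT and 41323 to 55748 CPM in KO, without overlap. Most of that sum was Alb, at 52757 to 66521 CPM in WT and 26549 to 35890 CPM in KO. Of 7 markers of stellate cells and fibroblasts 2 were higher, the collagen genes Col1a1 (log2 fold change 0.51) and Col1a2 (0.54), and of 5 lymphocyte markers tested 1, the antibody chain gene Ighm (1.05). Of 9 markers of the central zone 3 were higher in the libraries labelled KO, Glul, Oat and Lect2, with a summed level of 1698 to 2082 CPM in WT and 2531 to 3503 in KO. Of 8 markers of the portal zone 1 was lower, Hsd17b13. The portal list as a whole summed to 7380.3 to 12928 CPM in WT and 6928 to 13511 CPM in KO. The WT and KO ranges of the central list did not overlap, whereas those of the portal list did, and the part of any of these lists in the Cyp2f2 and Cyp2c38 differences was not tested. Library totals without TMM factors moved the median of all genes by 0.12 in this comparison, and Cyp2f2 then stood at -0.37. The central-zone members gave no call, Cyp2e1 with 0.18 ± 0.10 and Cyp1a2 with -0.06 ± 0.11 (log2, SE). Cyp3a11 stood at 0.00 ± 0.10. For Cyp2a5 the libraries labelled KO were higher in 5 of 6 pairs (log2 fold change 0.55 ± 0.23 (SE), adjusted p = 0.28). In the pair of 2 months L, where Cyp2a5 was 801 CPM in WT and 1602 in KO, Dbp was 24.5 and 72.9 CPM, and whether their time of day had a part was not tested.

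**Figure D5:**
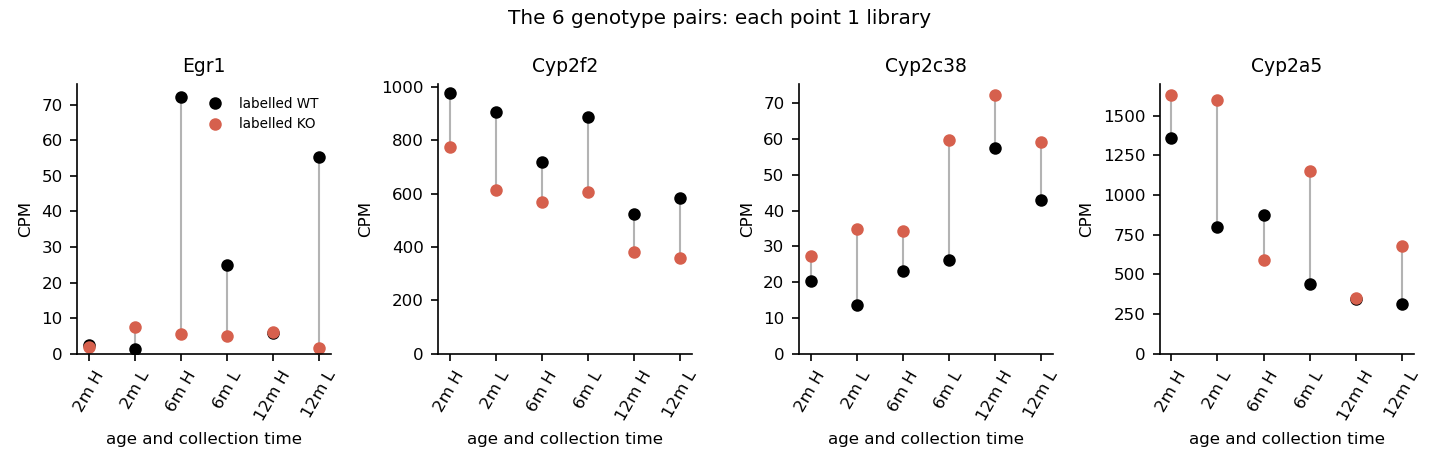
CPM of Egr1, Cyp2f2, Cyp2c38 and Cyp2a5 in the 6 pairs of the genotype cohort, labelled WT in black and KO in red, by age in months (m) and collection time (H or L). Egr1 is lower in 4 of the 6 libraries labelled KO, Cyp2f2 is lower in all 6 and Cyp2c38 higher in all 6.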

How the data were processed

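The authors deposited 2 tables of raw counts for each gene, whole numbers without normalization, made per the labels with fastp, HISAT2 on mm10 and featureCounts. The annotation release was not given in the sources used here. No column of values for single samples was left out (0). CPM were computed from library totals and edgeR's TMM factors, and levels per length from GENCODE M21 exons on GRCm38, matched by symbol or Ensembl identifier. Genes passing filterByExpr were tested in edgeR 4.0.16 (R 4.3.3) by the quasi-likelihood test, each table alone, at a threshold of 0.05 for p-values adjusted by the method of Benjamini and Hochberg across the genes tested. Age in the time course had ZT as a block, KO against WT the 6 pairs of equal age and collection time, and age in the genotype cohort genotype as a covariate. The block came from the labels, which give the shared ZT, age and time. DESeq2 1.42.0 served as an alternative. The fits were tested on simulated data. The members, the gene lists and the comparisons were chosen with earlier results of these data known. Named were the 10 most abundant members, those called in each comparison (the 12 with the smallest p where more), the 6 with the smallest p for a common rhythm, those whose rhythm differed, and well-known members. Alternatives were other scalings, no filter on low counts, no block, subsets of the pairs, and leaving out each time point or pair in turn.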

Additional observations from a re-analysis of the deposited data

Results flagged for a closer look

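Cyp2a5 differed between ages in its rhythm. The test of the difference between the cosine curves of 2 and 6 months gave an adjusted p of 0.0233 by edgeR's quasi-likelihood test, with the fitted peak at ZT 11.7 and ZT 15.9 and the mean level differing by -0.46 ± 0.33 (log2, SE). At 6 months the lowest library was ZT5 (51.3 CPM, against 259 at 2 months), the library with the most Saa1. Each curve rests on 6 libraries. The call was lost without ZT5, ZT9, ZT17 or ZT21, and the acute phase of the 6-month libraries cannot be told apart from their age.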

How the results depend on the processing

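The counts are of members. Without the replicate block, 3 rather than 5 rose at 12 against 2 months in the time course, and 0 and 0 rather than 1 and 1 were called between KO and WT; it moved no other count by more than 1.5 times. With no filter on low counts 9 rose at 12 against 2 months and 7 at 12 against 6 months, 5 were higher and 2 lower in KO, 4 were rhythmic at 6 months, 4 rose and 7 fell at 6 against 2 months in the genotype cohort, and 6 rose at 12 against 2 months there. DESeq2 called 3 higher and 2 lower in KO, 1 higher at 6 against 2 months in the genotype cohort, 7 rhythmic at 2 months, 4 at 6 months, 10 over the ages together, and 1 differing in rhythm between 2 and 12 months. Library totals without TMM factors, chosen after seeing the data, gave 3 higher in KO and moved the median of all genes there by 0.12. The 3 pairs at H gave 0 and 0, the 3 at L 0 lower. Leaving out the pairs 2 months L and 12 months H, or 6 months H and 12 months L, both chosen after seeing the data, gave 0 and 0. WT libraries alone gave 0 lower at 6 months, and 0 higher and 1 lower at 12 months. The JTK kind of test gave 1 at 12 months. In each case the cause was not tested.

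Leaving out 1 time point at a time gave 3 to 4 higher and 9 to 15 lower at 12 against 2 months, 2 to 3 and 10 to 16 at 6 against 2, 2 to 6 and 4 to 6 at 12 against 6, 1 to 4, 2 to 3 and 1 to 2 rhythmic at 2, 6 and 12 months, 3 to 8 over the ages together (8 without ZT5), 0 to 1 with a rhythm at 6 months unlike that at 2 months, and 0 in each fit for 12 against 2 months. Counts of those higher moved by over 1.5 times without ZT9, ZT13 or ZT21 (12 against 2), ZT1 (6 against 2), and ZT9 or ZT13 (12 against 6), and of those rhythmic without ZT17 (2 months) and ZT1, ZT9 or ZT17 (12 months). Leaving out 1 pair gave 0 to 1 higher and 0 to 2 lower in KO (2 lower without 6 months L), and in the genotype cohort 0 higher in each fit and 1 to 3 lower at 6 against 2 months (1 without 2 months H), and 1 to 5 and 6 to 13 at 12 against 2, with 1 higher without 2 months H or 12 months H, 5 higher without 12 months L, 8 lower without 2 months H and 6 lower without 12 months H. Among the refitted fold changes of named members past the threshold, 684 kept the call, 112 lost it and 0 reversed. Depth limits the 4 members that did not pass the filter in the time course, with 27 to 93 reads each over the 18 libraries.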

Other observations

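The levels of a few members, named after their values were seen, were unlike in the 2 tables, which were counted apart and are not tested against each other. Cyp3a16, known from the fetal and newborn liver, had 85 reads in the time course and 0 in the genotype cohort, and Cyp2a4 had at most 1.91 CPM in the first and 0.415 to 21.1 CPM in the second, where WT at 2 months H was highest. Cyp2d11, like Cyp3a16, was higher in the time course, with up to 7.94 CPM in the time course and at most 0.815 CPM in the genotype cohort. Cyp3a16, Cyp2a4 and Cyp2d11 share 10.7%, 38% and 37.2% of their stretches of 50 bases with other genes. Cyp2b9 was at 62.3, 46.1 and 39.3 CPM in 3 libraries of the genotype cohort, at no more than 12 CPM in the other 9, and at no more than 3.76 CPM in the time course.

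Some neighbours in a cluster went up and down together over the 18 libraries of the time course, as a description: Cyp2c50 and Cyp2c54 had r = 0.95, Cyp2c67 and Cyp2c68 r = 0.89, and Cyp2c29 and Cyp2c37 r = 0.84. Cyp2a12 and Cyp2f2, both on chromosome 7, had r = 0.89, and Cyp2a12 and Cyp2j6, on chromosomes 7 and 4, r = 0.87. These 3 all fell with age, and the libraries share depth and time of day.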
